A study of Mus musculus with 2 samples.

Results

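A set of 10 genes of the NF-kB system were followed across the cell types of mouse bone marrow: the inhibitors Nfkbia and Nfkbie, the nuclear IkB proteins Nfkbiz and Bcl3, the subunits Nfkb1, Nfkb2 and Relb, and the feedback and adaptor genes Tnfaip3, Birc3 and Traf1. They were chosen by gene symbol, with earlier results of these data known, and all 10 were among the 32285 genes of both count matrices. The cells came from the femoral marrow and the implant surface of mice with an osteoporotic fracture that carried an intramedullary nail, a rod in the marrow cavity. There were 2 droplet libraries made with the same 3' single-cell chemistry, 1 from mice with Mg-TAGelMA nails and 1 from mice with magnesium (Mg) nails. GelMA stands for gelatin methacryloyl, a hydrogel made from gelatin, while the meaning of TA is not given. The labels name no age, sex, strain, time after implantation or number of mice per library, nor how marrow and adherent cells were brought together.

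NF-kB dimers wait in the cytoplasm, bound by IkB inhibitors such as Nfkbia, until signals from receptors of tumour necrosis factor, interleukin-1, microbial products or antigen lead to destruction of the inhibitor. The dimers then enter the nucleus and switch on inflammatory and survival genes, among them many of their own inhibitors, so that Nfkbia, Tnfaip3 and other feedback genes serve as readouts of the pathway. In marrow the pathway is known for its role in the survival of maturing B cells, in the activation of T cells and in the inflammatory output of neutrophils and monocytes.

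Because several of these genes are textbook targets of NF-kB itself, the stretches before their start sites were read from the RefSeq promoter table (build GRCm38.p6), which held a window for 7 of the 10 members and none for Nfkbiz, Nfkb1 and Relb. Each window runs from 250 bases before to 50 bases after a start. The kappaB consensus, a 10-base motif searched on both strands, matched in windows of 5 of these 7 genes (Nfkbia, Nfkbie, Bcl3, Nfkb2 and Tnfaip3). Of all 27025 genes with a window, 1388 (5.14%) held a match. Tnfaip3 is shown with its 2 matches, Nfkbia with its match close to the start, and Birc3 as a member with none. Each stretch is the longest run of the 250 bases before the start that overlaps no annotated exon, written 5′ to 3′ on the gene's strand, with capitals at matches of the consensus.
Tnfaip3, chr10:19015411-19015547, minus strand: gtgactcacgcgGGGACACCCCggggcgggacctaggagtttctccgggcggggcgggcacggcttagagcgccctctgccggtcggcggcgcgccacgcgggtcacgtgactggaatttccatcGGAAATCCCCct
Nfkbia, chr12:55492648-55492897, minus strand: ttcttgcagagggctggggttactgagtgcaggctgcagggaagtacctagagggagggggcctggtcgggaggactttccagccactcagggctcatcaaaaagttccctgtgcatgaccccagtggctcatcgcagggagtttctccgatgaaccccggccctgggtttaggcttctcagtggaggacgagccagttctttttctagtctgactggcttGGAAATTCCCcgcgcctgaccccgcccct
Birc3, chr9:7873187-7873420, minus strand: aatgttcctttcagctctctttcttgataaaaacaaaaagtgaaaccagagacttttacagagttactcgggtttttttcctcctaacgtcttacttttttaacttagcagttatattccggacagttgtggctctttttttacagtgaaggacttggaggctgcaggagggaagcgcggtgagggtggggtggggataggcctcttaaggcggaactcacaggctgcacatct
In Tnfaip3 the forward match GGGACACCCC begins at base -125 and the reverse match GGAAATCCCC at base -12, counted from the start. In Nfkbia the match GGAAATTCCC begins at base -29, on the reverse strand. Nfkb2, whose 3 annotated starts all had matches, carried GGGAATTCCC at base -39 of its first start. That match reads on both strands and overlaps a second one, GGAATTCCCC, shifted by a base. Nfkbie carried GGGGGATTCC at base -106, and the Bcl3 match GGGAAGTCCC lay after the start, at base 3. These are matches of letters, and no binding was measured.

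The Mg-TAGelMA library held 7226 kept cells with a median of 6744 UMIs (unique molecular identifiers, each a counted RNA molecule) and the Mg library 8122 kept cells with a median of 3803.5 UMIs. Cells were assigned to a type by their own marker genes, none of which is a member, and 6710 Mg-TAGelMA cells (92.9%) and 7303 Mg cells (89.9%) passed the gate of a single type. Of other bone cells, 0 Mg-TAGelMA and 7 Mg cells passed the stromal gate and 2 and 0 the osteoclast gate. The kept cells shared 19 cell barcodes between the libraries. Levels are CPM, the gene's UMIs per 1000000 UMIs, both summed over all cells of a gate, with exact Poisson 95% intervals. With 1 library per nail no test between the nails was possible, and every interval covers counting error only. Depth, Cell Ranger version and nail all changed together between the libraries and cannot be told apart. A lower summed level cannot separate fewer expressing cells from less RNA per cell.

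Among the inhibitors, Nfkbia (chr12:55489410-55492647, minus strand), which holds NF-kB in the cytoplasm, was most abundant in basophil/mast-gated cells. It had 2573 CPM (2439 to 2712) in the 56 Mg-TAGelMA cells of this gate and 3463 CPM (3128 to 3823) in the 17 Mg cells. No other gate came near this level: conventional dendritic-gated cells followed in both libraries, with 503 CPM in the Mg-TAGelMA library and 817 CPM in the Mg library. Among the 6 gates with at least 100 cells in each library, B progenitor-gated cells led in both libraries, with 436 CPM (420.0 to 454) in Mg-TAGelMA cells and 346 CPM (336 to 356) in Mg cells. T-gated cells came next in the Mg-TAGelMA library with 378 CPM (354 to 404) and last in the Mg library with 184 CPM (168 to 201). The lowest of the 6 in the Mg-TAGelMA library were the immature neutrophil-gated cells with 139 CPM (133 to 145), against 205 CPM (196 to 215) in Mg cells. The order of the 6 gates was therefore not shared, and the intervals of mature neutrophil-, B mature- and monocyte-gated neighbours overlapped in the Mg-TAGelMA library. Erythroid-gated cells had 276 CPM (254 to 299) in the Mg-TAGelMA library, from 98 cells, and 45.8 CPM (41.6 to 50.3) in the Mg library, from 888 cells. The erythroid level of the Mg-TAGelMA library was above its mature neutrophil-, B mature-, monocyte- and immature neutrophil-gated levels of 179, 165, 161 and 139 CPM.

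Nfkbie (chr17:45555703-45563169, plus strand), a second cytoplasmic inhibitor that is prominent in B cells, was highest in B progenitor-gated cells of the Mg-TAGelMA library at 102 CPM (94.1 to 111). This interval overlapped that of the conventional dendritic gate. In the Mg library the B progenitor-gated cells had 46.5 CPM (42.9 to 50.3), and their interval overlapped that of the B mature-gated cells at 41.0 CPM (35.9 to 46.6). The 28 macrophage-gated Mg cells ranked first there at 48.5 CPM, with an interval that overlapped the B progenitor one. B progenitor-gated cells, 9.95% of kept Mg-TAGelMA cells and 23.9% of kept Mg cells, supplied 30.9% of all Nfkbie UMIs of the Mg-TAGelMA library, against 51.3% of those of the Mg library. Granulocyte gates were low: immature neutrophil-gated cells had 8.38 and early granulocyte-gated cells 6.54 CPM in the Mg-TAGelMA library, against 8.17 and 2.55 CPM in the Mg library. The 10 plasma cell-gated Mg cells had 0 Nfkbie UMIs, which allows a level of up to 17.5 CPM (3 counts of the gate's total).

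The nuclear IkB proteins bind NF-kB on DNA and adjust which genes it activates. Nfkbiz (chr16:55811375-55838899, minus strand) was highest in basophil/mast-gated cells in both libraries and, among the 6 larger gates, in mature neutrophil-gated cells. Basophil/mast-gated cells had 1572 CPM (1468 to 1682) in the Mg-TAGelMA library and 1390 CPM (1181 to 1626) in the Mg library, intervals that overlapped. Mature neutrophil-gated cells led the 6 larger gates with 235 CPM (226 to 244) in the Mg-TAGelMA library and 353 CPM (320.2 to 389) in the Mg library. Immature neutrophil-gated cells had 109.5 CPM (105 to 115) in Mg-TAGelMA cells and 111 CPM (104 to 118) in Mg cells, so that the level stood higher in the mature gate in each library. B progenitor-gated cells, with 94.8 CPM (87.0 to 103) against 35.1 CPM (32.05 to 38.5), and T-gated cells, with 113 CPM (99.6 to 127) against 71.7 CPM (61.9 to 82.7), had their larger values in the Mg-TAGelMA library, the reverse of the mature neutrophil gate. Conventional dendritic-gated cells had 250.2 CPM (205 to 302) in the Mg-TAGelMA library and 172 CPM (140.1 to 209.9) in the Mg library, and early granulocyte-gated cells only 30.6 and 12.1 CPM. The 701 CPM of Nfkbiz in macrophage-gated Mg-TAGelMA cells came from 101 UMIs in 19.4% of 36 cells of low depth (median 996 UMIs) and describes few cells.

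Bcl3 (chr7:19808462-19822770, minus strand), which partners the subunits encoded by Nfkb1 and Nfkb2 in the nucleus, had its highest Mg-TAGelMA level in conventional dendritic-gated cells at 141 CPM (108 to 182), against 20.9 CPM (10.8 to 36.5) in the Mg library. Monocyte-gated cells followed with 75.5 CPM (70.3 to 80.9) in the Mg-TAGelMA library and had 9.59 CPM (6.79 to 13.2) in the Mg library. In the Mg library the B mature-gated cells led the 6 larger gates instead, at 33.0 CPM (28.4 to 38.1), against 50.5 CPM (44.3 to 57.3) in the Mg-TAGelMA library. Monocyte-gated cells, 9.71% of kept Mg-TAGelMA cells and 5.55% of kept Mg cells, carried 34.8% of all Bcl3 UMIs in the Mg-TAGelMA library, against 7.50% in the Mg library. Models on the opposite strand, Gm16175 and Gm16174, overlap Bcl3.

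Of the subunits, Nfkb1 (chr3:135584655-135691547, minus strand), whose product is cut to a DNA-binding partner in the most common dimer, was detected broadly. In the Mg-TAGelMA library the 6 larger gates had levels whose intervals did not overlap: T-gated cells had 541 CPM (511 to 572), B progenitor-gated cells 437 (421 to 455), B mature-gated cells 388 (371 to 407), monocyte-gated cells 249.8 (240.2 to 259.6), mature neutrophil-gated cells 174 (166 to 181) and immature neutrophil-gated cells 135 (129 to 140.3). In the Mg library the B mature-gated cells had 251 CPM (238 to 264), monocyte-gated cells 225 (210.3 to 240.1), T-gated cells 171 (156 to 188), mature neutrophil-gated cells 168 (145 to 193), B progenitor-gated cells 118 (112 to 124) and immature neutrophil-gated cells 113 (106 to 120.2). Among these 6, lymphoid gates stood above myeloid gates in Mg-TAGelMA cells and were interleaved with them in Mg cells; smaller gates did not follow this order. Basophil/mast-gated cells had 1046 CPM (961 to 1136) in the Mg-TAGelMA library and 106 CPM (54.9 to 186) in the Mg library. The Mg value rests on 12 UMIs.

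Nfkb2 and Relb encode the pair of subunits of the alternative pathway, which signals downstream of CD40, the lymphotoxin receptor and the BAFF receptor. Nfkb2 (chr19:46304320-46312385, plus strand) stayed below 100 CPM in every gate of both libraries. B mature-gated cells had 48.8 CPM (42.7 to 55.5) in the Mg-TAGelMA library and 79.6 CPM (72.4 to 87.3) in the Mg library, the highest of the 6 larger gates there. It overlaps Psd and AC114539.1, both on the opposite strand. Relb (chr7:19606217-19629438, minus strand) had its highest levels among the 6 larger gates in lymphoid cells, with 181 CPM (170.2 to 192.3) in B progenitor-gated, 172 (155 to 189) in T-gated and 147 (137 to 159) in B mature-gated Mg-TAGelMA cells. In the Mg library the same gates had 24.3 (21.7 to 27.1), 25.04 (19.4 to 31.9) and 46.6 CPM (41.2 to 52.6). Neutrophil gates were lowest, at 12.3 CPM in immature and 20.8 CPM in mature neutrophil-gated Mg-TAGelMA cells and 4.54 and 12.01 CPM in Mg cells.

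Tnfaip3 (chr10:19000910-19015657, minus strand) encodes A20, an enzyme that edits ubiquitin chains and shuts NF-kB signalling down. It was highest in basophil/mast-gated and then in T-gated cells in both libraries. Basophil/mast-gated cells had 900.4 CPM (822 to 984) in the Mg-TAGelMA library and 726 CPM (578 to 901) in the Mg library, with overlapping intervals. T-gated cells had 550.4 CPM (521 to 582) in the Mg-TAGelMA library and 118 CPM (105 to 132) in the Mg library, and NK-gated cells, 48 and 97 in number, had 522 CPM (458 to 593) and 53.6 CPM (36.4 to 76.0). T-gated cells thus led the 6 larger gates in both libraries. They held 21.4% of all Tnfaip3 UMIs while making up 3.92% of kept Mg-TAGelMA cells, and 18.7% while making up 5.68% of kept Mg cells. Basophil/mast-gated cells, 0.775% of kept Mg-TAGelMA cells and 0.209% of kept Mg cells, held 8.14% and 4.93% of the Tnfaip3 UMIs.

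Birc3 (chr9:7848699-7873186, minus strand) encodes cIAP2, a ubiquitin ligase that protects cells from death signalled by tumour necrosis factor receptors. B mature-gated cells led all 15 gates in both libraries, with 369 CPM (352 to 387) in Mg-TAGelMA cells and 178 CPM (167 to 189) in Mg cells. B progenitor-gated cells had 246 CPM (234 to 259) against 69.7 CPM (65.3 to 74.3), and T-gated cells 224 CPM (205 to 244) against 43.6 CPM (36.0 to 52.4). Among the 6 larger gates the B mature interval stood clear of the next in each library, and the intervals of the B progenitor and T gates overlapped in the Mg-TAGelMA library. Traf1 (chr2:34941750-34961772, minus strand), an adaptor of tumour necrosis factor receptors that binds Birc3 protein, was highest in T- and NK-gated cells in both libraries. T-gated cells had 151 CPM (136 to 168) in the Mg-TAGelMA library and 93.0 CPM (81.7 to 105) in the Mg library, and NK-gated cells 137 CPM (105 to 175) and 119 CPM (92.7 to 151). Basophil/mast-gated cells had 115 CPM (88.4 to 148) and 44.3 CPM (14.4 to 103), and conventional dendritic-gated cells 83.4 CPM (58.4 to 115) and 57.5 CPM (39.6 to 80.7), in the Mg-TAGelMA and the Mg library. The basophil/mast interval overlapped that of the NK gate in each library. T-gated cells held 30.2% of the Traf1 UMIs of the Mg-TAGelMA library, against 37.8% of those of the Mg library. Immature neutrophil-gated cells were near 0, with 2.77 CPM in the Mg-TAGelMA and 1.47 CPM in the Mg library.

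**Figure D1:**
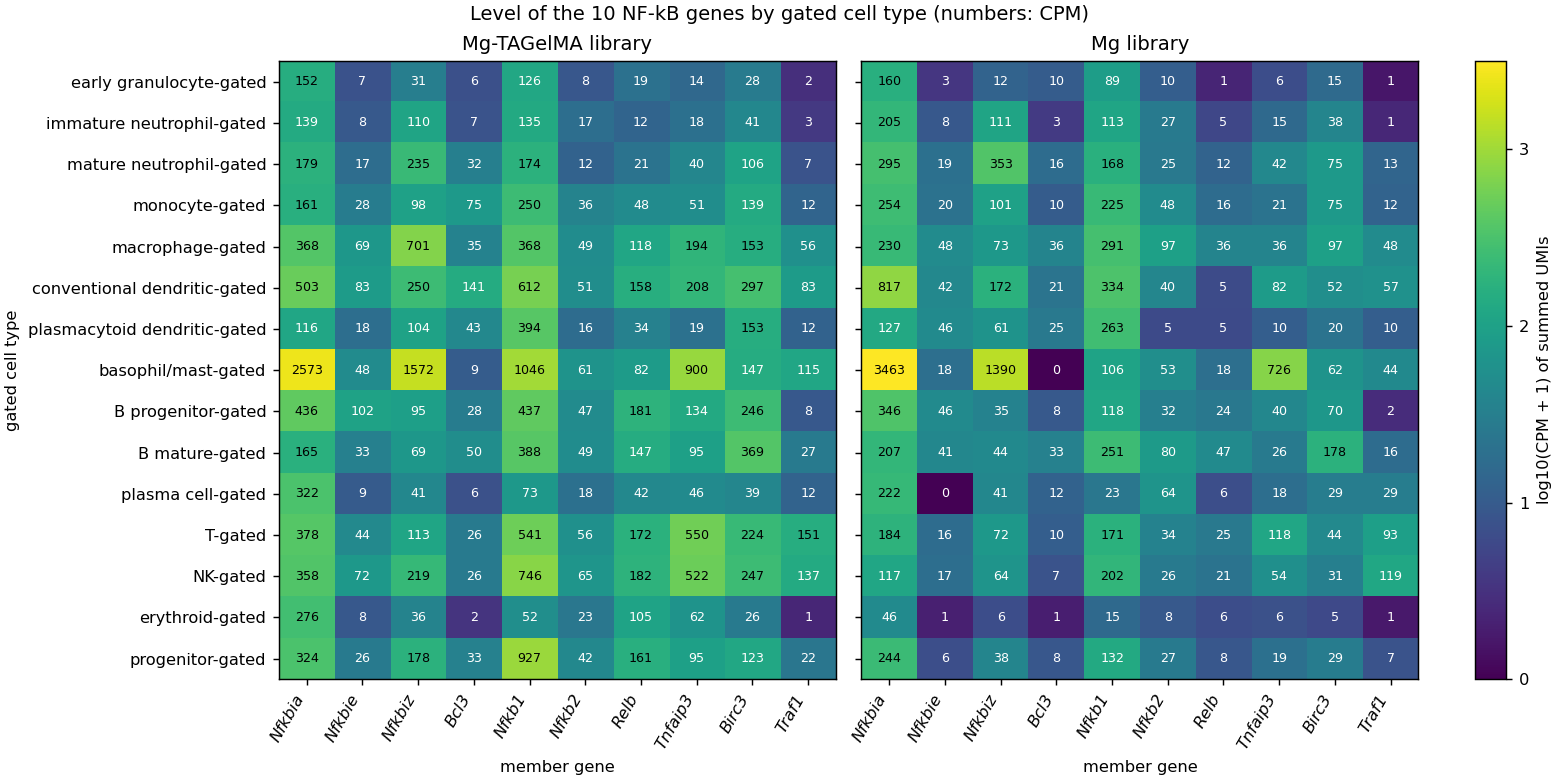
Level of the 10 NF-kB genes (columns) in 15 gated cell types (rows), Mg-TAGelMA library left and Mg library right, as CPM of summed UMIs printed in each cell and coloured by log10(CPM + 1). The basophil/mast row is the brightest for Nfkbia, Nfkbiz and Tnfaip3 in both panels, while Tnfaip3 is also high in the T and NK rows, at 550.4 and 522 CPM in the Mg-TAGelMA library.

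The comparison between the nails was made as the ratio of CPM, Mg-TAGelMA over Mg, within the 6 gates that had at least 100 cells in each library. Erythroid-gated cells, 98 in the Mg-TAGelMA library, fell under this number, and their levels are given further below. A gene counted as higher or lower when the exact 95% interval of its ratio lay wholly beyond 2-fold and it reached 50 CPM in the higher library. In T-gated cells (283 Mg-TAGelMA and 461 Mg cells), 4 of the 10 members were higher and 0 lower, and 8 of 10 reached 50 CPM. Of the 3812 genes tested in this gate, 20.4% were higher and 1.81% lower. Relb was 6.85-fold (5.27 to 9.04), Birc3 5.13-fold (4.19 to 6.34), Tnfaip3 4.66-fold (4.12 to 5.30) and Nfkb1 3.16-fold (2.84 to 3.53) higher in Mg-TAGelMA cells. Subunits and feedback genes were thus both among the higher members. Nfkb1, a gene of long introns, no longer passed once the median of genes of like intron length was removed (log2 0.38). The 6 others had ratios from 1.57 for Nfkbiz (1.30 to 1.91) to 2.68 for Nfkbie (1.86 to 3.92), Nfkbia being at 2.06 (1.84 to 2.31). The median log2 ratio was 1.37 over the 10 members and 0.17 over all genes tested. Their summed level was 2254 CPM in Mg-TAGelMA cells and 767 CPM in Mg cells.

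In B progenitor-gated cells (719 Mg-TAGelMA and 1943 Mg cells), 5 members were higher and 0 lower, of 7 that reached 50 CPM. Of the 4128 genes tested, 18.5% were higher and 1.33% lower. Relb led at 7.45-fold (6.58 to 8.47), followed by Nfkb1 at 3.72-fold (3.49 to 3.96), Birc3 at 3.53-fold (3.25 to 3.84), Tnfaip3 at 3.34-fold (2.99 to 3.74) and Nfkbiz at 2.70-fold (2.38 to 3.06). All 4 genes higher in T-gated cells were among these. Nfkbia, the most abundant inhibitor of this gate, had a ratio of only 1.26 (1.20 to 1.32) and Nfkb2 of 1.49 (1.28 to 1.74). Traf1 had the second highest ratio of the members, 4.52 (2.71 to 7.73), but at 8.08 CPM in Mg-TAGelMA and 1.79 CPM in Mg cells it did not reach the level required. The median log2 ratio of the 10 members was 1.74, against -0.02 over all genes tested. The stage markers of this gate differed too: its 6 B lineage markers summed to 14672 CPM in Mg-TAGelMA and 5918 CPM in Mg cells and its 6 progenitor markers to 2721 and 3809 CPM, and the part of stage in the ratios was not tested. With each cell thinned to 1000 UMIs, the log2 ratios of Nfkbiz (1.06) and Birc3 (1.25) no longer passed the rule and 3 members did, beside 14.2% of all genes tested. Nfkb1 did not pass with the median of its intron length class removed (0.68), nor Nfkbiz with the lowest level of any gate subtracted (1.13).

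In B mature-gated cells (948 Mg-TAGelMA and 1605 Mg cells), 2 of the 10 members were higher and 0 lower, with 8 reaching 50 CPM and 21.7% of 4021 genes higher and 4.15% lower. The higher ones were Tnfaip3 at 3.66-fold (3.03 to 4.44) and Relb at 3.16-fold (2.74 to 3.66), both also higher in the B progenitor and T gates. Birc3, at 2.08-fold (1.92 to 2.25), fell just inside the bound. Both cytoplasmic inhibitors and Nfkb2 had ratios below 1: the ratio was 0.796 (0.726 to 0.873) for Nfkbia, 0.797 (0.646 to 0.982) for Nfkbie and 0.613 (0.520 to 0.720) for Nfkb2. With the median of genes of like intron length removed, the log2 ratios were 0.14 for Nfkbia, 0.13 for Nfkbie and -0.25 for Nfkb2. Neither inhibitor was thus below the median of genes of like intron length. The median log2 ratio of the members was 0.64, against 0.05 over all genes tested. With 2 of the 8 that could pass, the count is near the share of all genes tested. The 5 mature B cell markers summed to 1744 CPM in Mg-TAGelMA and 3774 CPM in Mg cells of this gate, whose part in the ratios was likewise not tested.

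Monocyte-gated cells (702 Mg-TAGelMA and 451 Mg cells) had 1 member higher, Bcl3, and 0 lower, of 6 that reached 50 CPM. Of 3952 genes tested, 15% were higher and 1.39% lower. With 1 of the 6 that could pass, the count is near the share of all genes tested. Bcl3 was 7.87-fold higher in Mg-TAGelMA cells (5.68 to 11.2), the largest ratio of any member in any of the 6 gates. Relb (2.90, 2.24 to 3.82) had an interval beyond 2-fold but 47.6 CPM in Mg-TAGelMA cells, just under the level required, and Tnfaip3 (2.44, 1.93 to 3.12) had an interval that crossed the bound. Nfkbia had 161 CPM in Mg-TAGelMA and 254 CPM in Mg cells, a ratio of 0.631 (0.583 to 0.683) that did not pass the rule. The median log2 ratio of the members was 0.32, against 0.09 over all genes tested.

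In the neutrophil gates 0 members passed in either direction. Immature neutrophil-gated cells (1280 Mg-TAGelMA and 1088 Mg cells) had 3 members above 50 CPM, with 8.98% of 2928 tested genes higher and 3.93% lower. Mature neutrophil-gated cells (2144 Mg-TAGelMA and 494 Mg cells) had 4 above 50 CPM, with 12.3% of 2924 tested genes higher and 8.48% lower. With so few that could pass, a count of 0 is near the share of all genes tested in either gate. In mature cells Nfkbia had a ratio of 0.607 (0.541 to 0.682), Nfkbiz of 0.664 (0.599 to 0.738) and Nfkb2 of 0.473 (0.315 to 0.731), the last at 11.8 CPM in Mg-TAGelMA and 24.9 CPM in Mg cells. Nfkb1 (1.03, 0.892 to 1.20) and Tnfaip3 (0.952, 0.709 to 1.30) had intervals around equality. Birc3 (1.42, 1.14 to 1.79), Bcl3 (1.96, 1.24 to 3.29) and Relb (1.73, 1.01 to 3.21) had intervals above 1, Bcl3 and Relb at under 50 CPM. In immature cells 5 members had intervals above 1 and 2 below. Relb was at 2.72 (1.93 to 3.92) and Bcl3 at 2.36 (1.53 to 3.76), both at under 50 CPM. The ones below were Nfkbia at 0.677 (0.637 to 0.721) and Nfkb2 at 0.640 (0.538 to 0.763). The members' median log2 ratio was -0.12 in mature and 0.19 in immature neutrophil-gated cells, against -0.05 and -0.13 over all genes tested. Scaling by trimmed mean (TMM) moved all log2 ratios of the mature gate up by 0.29 and those of the immature gate by 0.11, and lowered those of the B progenitor gate by 0.22 and of the T gate by 0.10, without turning the direction of any member whose interval excluded equality.

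**Figure D2:**
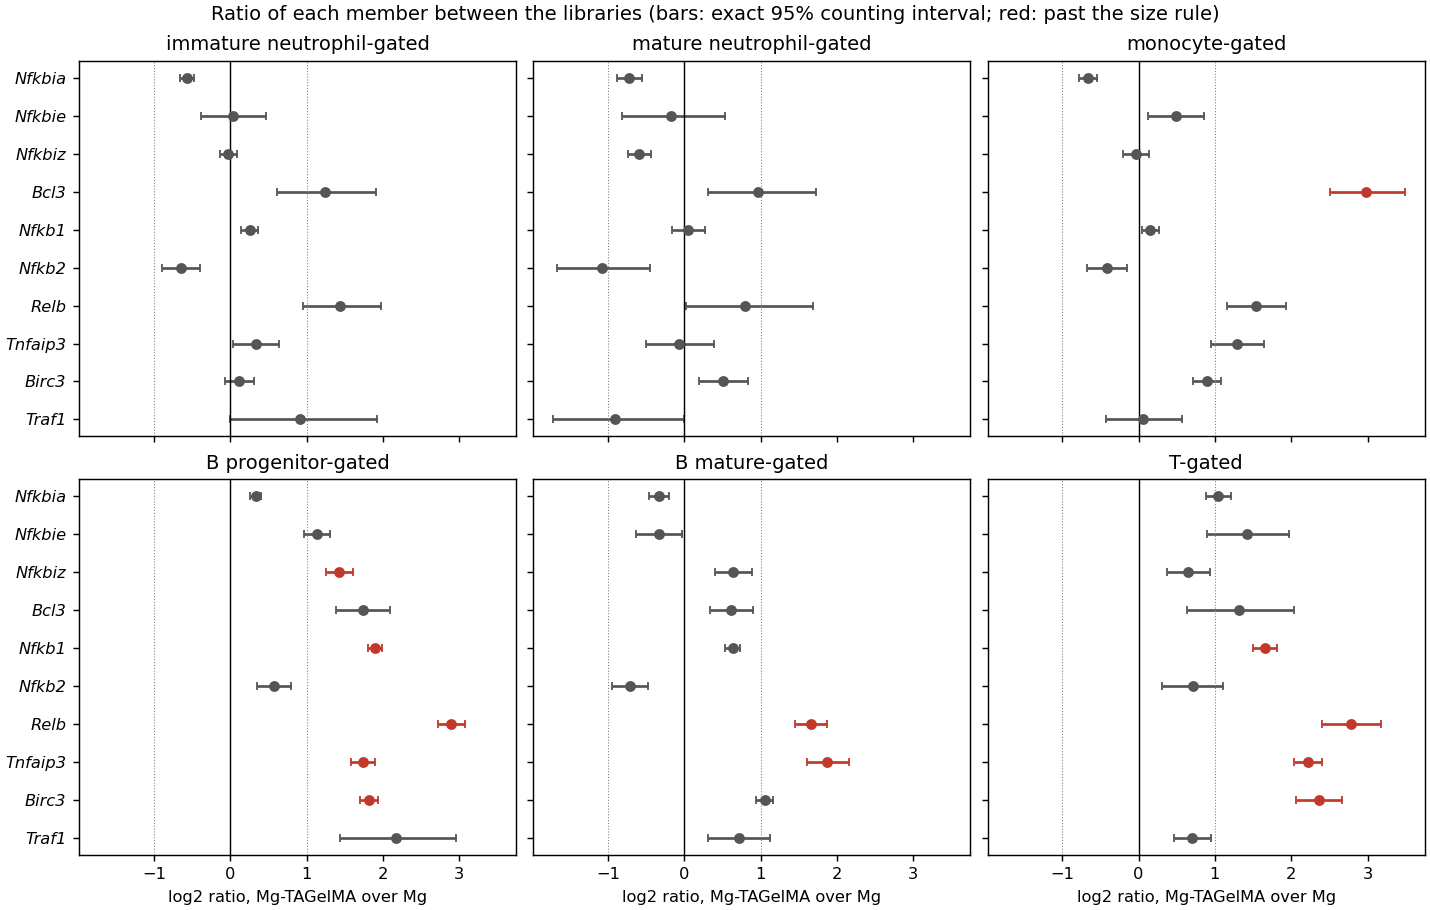
Log2 ratio, Mg-TAGelMA over Mg, of each NF-kB gene in the 6 gates with at least 100 cells in each library. Points are ratios of CPM, bars are exact 95% counting intervals, dotted lines mark 2-fold and red marks genes past the size rule. Red points cluster in the B progenitor and T panels, which have 5 and 4 of them. The neutrophil panels have none, with 3 members in the immature and 4 in the mature gate that reached 50 CPM.

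Over all kept cells together, 3 members were higher (Relb 3.69-fold, 3.43 to 3.96; Tnfaip3 2.63-fold, 2.49 to 2.78; Nfkbiz 2.13-fold, 2.05 to 2.22) and 0 lower, beside 18.8% of 3973 tested genes higher and 7.63% lower. The mix of cells differed as well: mature neutrophil-gated cells, which led the 6 larger gates in Nfkbiz, were 29.7% of kept Mg-TAGelMA cells and 6.08% of kept Mg cells. The part of the mix in the pooled ratios was not tested. Within the mature neutrophil gate itself the Nfkbiz ratio was 0.664, the opposite side of equality from the pooled value. It was on the same side in B progenitor- (2.70), T- (1.57) and B mature-gated cells (1.56). In monocyte- (0.978) and immature neutrophil-gated cells (0.985) its interval included equality. The pooled Nfkbiz ratio did not pass under TMM scaling (log2 1.03), median-ratio size factors (1.04), a total without Gm42418 and AY036118 (0.99) or thinning (0.84).

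Shares of cells with a UMI gave the same gates another view. They were read after each cell was thinned to 1000 UMIs, since the depths differed, and set beside erythroid-gated cells. This gate is a comparison and not a floor, since Nfkbia and Relb were seen in it as well, as given below. Tnfaip3 was seen in 42.3% of 281 thinned Mg-TAGelMA T-gated cells (36.5 to 48.4, exact Clopper-Pearson) and in 10.4% of 461 Mg cells (7.78 to 13.6). Before thinning the shares were 91.9% and 32.5%, at median depths of 7585 and 5501 UMIs. Erythroid-gated cells had 3.26% (0.678 to 9.23) and 0.351% (0.0724 to 1.02) after thinning, and median depths of 14923.5 and 4644.5 UMIs before it. The T-gated shares of Tnfaip3 stood above the erythroid ones in each library. Birc3 was seen in 21.0% of thinned Mg-TAGelMA T-gated cells and 4.99% of Mg ones, and Relb in 15.3% and 3.04% (before thinning 75.6% and 19.96% for Birc3, and 62.5% and 11.1% for Relb). In B progenitor-gated cells Relb was seen in 17.3% (14.6 to 20.3) of 712 thinned Mg-TAGelMA cells and 2.82% (2.13 to 3.66) of 1915 Mg cells, from 59.8% and 13.9% before thinning. Relb in erythroid-gated cells was at 6.52% (2.43 to 13.7) and 0.468% (0.128 to 1.19). The B progenitor intervals of Relb lay above the erythroid ones in both libraries, while that of the Mg-TAGelMA T-gated cells (11.3 to 20.1) overlapped its erythroid counterpart. Nfkbia was seen in 23.9% (15.6 to 33.9) of thinned erythroid-gated Mg-TAGelMA cells and 3.51% (2.38 to 4.97) of Mg cells. The thinned Nfkbia shares of immature neutrophil- (10.9%), B mature- (13.7%), monocyte- (14.6%) and mature neutrophil-gated (15.01%) Mg-TAGelMA cells were all below that of their own library's erythroid gate. This order is of point values, and the erythroid interval of 15.6 to 33.9 is wide. A gate that holds Nfkbia UMIs itself cannot show whether these 4 gates lack a signal of their own. No difference between the nails is read from their Nfkbia shares, and their Nfkbia ratios below 1 are given as values.

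**Figure D3:**
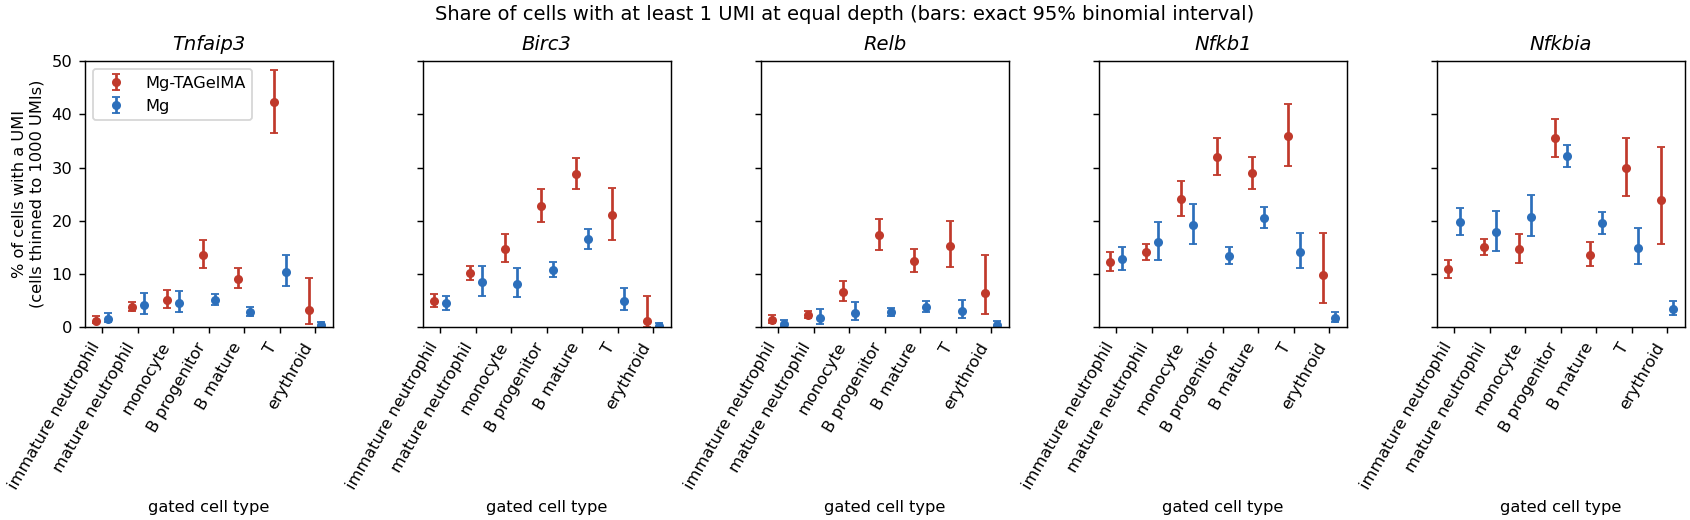
Percent of cells with at least 1 UMI of Tnfaip3, Birc3, Relb, Nfkb1 and Nfkbia in 7 gates after every cell was thinned to 1000 UMIs, Mg-TAGelMA in red at the left of each pair and Mg in blue, with exact 95% binomial intervals. The T-gated Tnfaip3 points lie at 42.3% and 10.4%, the widest gap of the panels, and erythroid-gated points are a comparison and not a floor.

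Transcripts of other cells were present in the lymphoid gates, at a higher level in the Mg-TAGelMA library. All 6 immature neutrophil markers (such as Camp and Ltf) had UMIs in T-gated cells, at a summed 3238 CPM in the Mg-TAGelMA library and 1108 CPM in the Mg library, and the 7 mature neutrophil markers (such as Retnlg) summed to 934 and 119 CPM. In B progenitor-gated cells the same lists summed to 3282 and 977 CPM in the Mg-TAGelMA library and to 1004 and 100.4 CPM in the Mg library. In B mature-gated cells the lists summed to 3489 and 1094 CPM in the Mg-TAGelMA library and to 1240.4 and 128 CPM in the Mg library, and in monocyte-gated cells to 3302 and 1299 CPM and to 1138 and 323 CPM. In erythroid-gated cells the 10 members together had 593 CPM in the Mg-TAGelMA library and 94.8 CPM in the Mg library, beside 3024 and 1006 CPM of the immature neutrophil list. The members together had 2254 and 767 CPM in T-gated cells and 1715 and 721 CPM in B progenitor-gated cells. Relative to the Mg level, the gap between the libraries was thus wider in the erythroid gate than in these 2 gates. The part of free RNA in the levels and ratios of the members was not tested. When the lowest level of each gene in any gate of at least 50 cells was subtracted within each library, a step chosen after the values were seen, T-gated cells still had 4 members higher and B progenitor-gated cells 4, Nfkbiz being lost (log2 1.13). B mature-gated cells then had 2 higher and 1 lower, Nfkbia at a log2 ratio of -1.73.

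The files were made with different versions of Cell Ranger: the Mg-TAGelMA counts with 7.0.1 and the Mg counts with 5.0.0. Recent releases count reads from introns by default and older ones do not, and the labels do not say which was done. Over all genes the ratios were higher where annotated introns were longer: in T-gated cells the median log2 ratio was -0.24 for genes with 2 to 8 kb of introns, -0.07 for 8 to 32 kb and 1.28 above 64 kb. Nfkb1 has 94.8 kb of introns, and its log2 ratio less the median of its length class was 0.38 in T-gated, 0.68 in B progenitor-gated and -0.69 in B mature-gated cells, which did not pass the rule. The other higher members are shorter: Tnfaip3 has 7.52 kb, Bcl3 11.8 kb, Relb 19.3 kb, Birc3 19.5 kb and Nfkbiz 22.5 kb. Among genes of 8 to 32 kb, 7.34% were higher in T-gated, 5.33% in B progenitor-gated, 8.17% in B mature-gated and 4.29% in monocyte-gated cells, and among those of 2 to 8 kb 4.28%, 4.97%, 4.55% and 1.96%. Above 64 kb, the class of Nfkb1, the shares in these gates were 49.9%, 52.3%, 54.0% and 44.9%. In T-gated cells the log2 ratios less the class median were 2.84 for Relb, 2.46 for Tnfaip3 and 2.43 for Birc3, all still past the rule. Nfkbia, with 1.63 kb of introns, passed in T-gated cells once its class median was removed (log2 1.29).

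**Figure D4:**
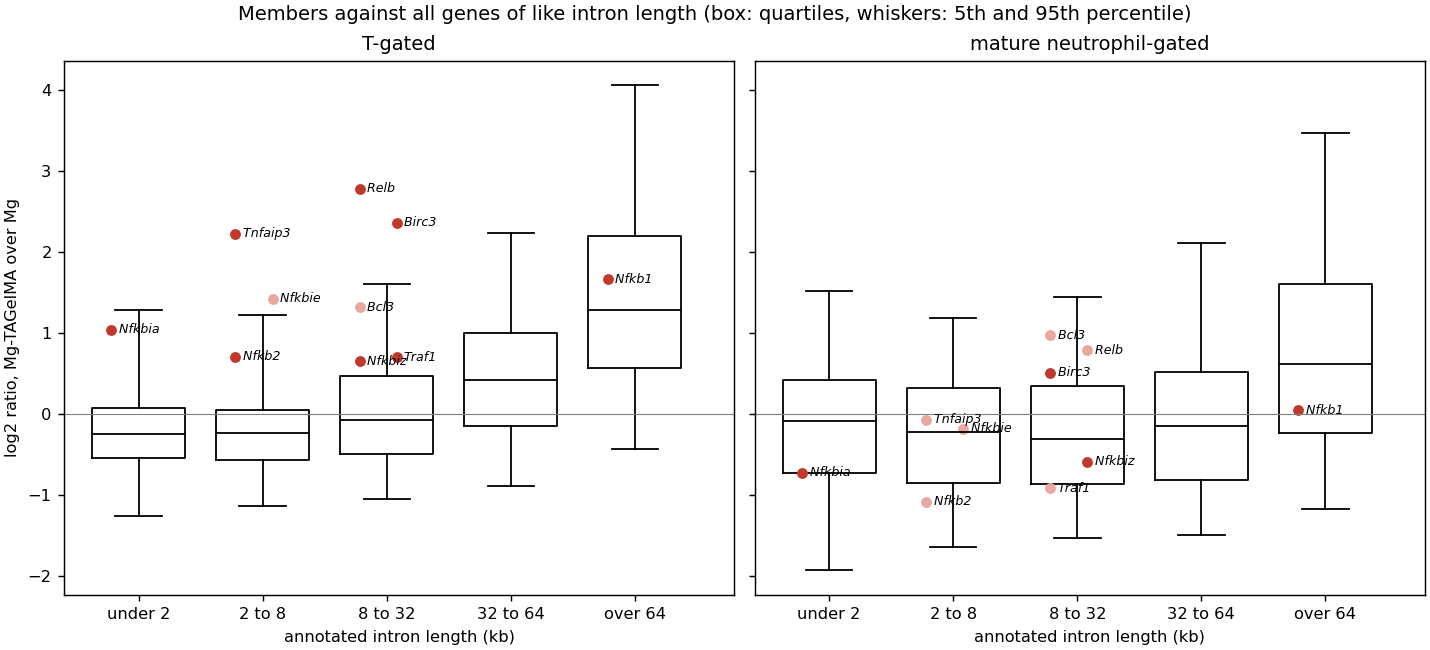
Log2 ratio, Mg-TAGelMA over Mg, against annotated intron length, in T-gated cells (left) and mature neutrophil-gated cells (right). Boxes show the median and quartiles and whiskers the 5th and 95th percentile of all genes tested in each length class, and points are the NF-kB genes, pale where they did not reach 50 CPM. In T-gated cells Relb, Tnfaip3 and Birc3 lie above the whiskers of their classes, as does the pale point of Nfkbie, and Nfkb1 lies within its box.

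Genes that carry the signal to NF-kB or report on it were read from lists, which were chosen with earlier results of these data known. Of 32 pathway genes (receptors, adaptors, kinases and other regulators), those that reached 50 CPM and so could pass numbered 19 in T-gated, 12 in B progenitor-gated, 17 in B mature-gated, 16 in monocyte-gated, 13 in mature neutrophil-gated and 7 in immature neutrophil-gated cells. In T-gated cells 7 were higher and 0 lower, beside 20.4% of all genes tested higher, and in B progenitor-gated cells 5 and 0, beside 18.5%. B mature-gated cells had 5 higher and 1 lower, beside 21.7%, and monocyte-gated cells 3 and 0, beside 15%, so that the counts of these gates lie near the share of all genes tested. Either neutrophil gate had 0 and 0, beside 12.3% higher in the mature and 8.98% in the immature gate. The list's median log2 ratio was 0.52 in T-gated, 0.45 in B progenitor-gated, 0.48 in B mature-gated, 0.31 in monocyte-gated, -0.20 in mature neutrophil-gated and -0.11 in immature neutrophil-gated cells. In T-gated cells the leading ones were Tnfrsf1b, a receptor of tumour necrosis factor, at 6.41-fold (4.93 to 8.44), Map3k14, the kinase of the alternative pathway, at 5.21-fold (3.91 to 7.04), Traf3, the adaptor that holds that kinase in check, at 5.08-fold (3.95 to 6.61), and the adaptor Traf6 at 3.98-fold (2.90 to 5.54). B progenitor-gated cells shared Traf3 (8.40-fold) and Traf6 (3.71-fold) and added Nfkbid, another nuclear IkB protein (4.51-fold), and the subunit Rel (3.62-fold). Traf3 (5.01-fold), Rel (3.60-fold), Traf6 (3.27-fold) and Otulin (3.21-fold) led in B mature-gated cells. Traf3, Map3k14 and Otulin have 93.4, 41.2 and 86.4 kb of introns. Of all genes tested with more than 64 kb, 49.9% were higher in T-gated, 52.3% in B progenitor-gated, 54.0% in B mature-gated and 44.9% in monocyte-gated cells. In the class of 32 to 64 kb, that of Map3k14, 18.3% were higher in T-gated and 11.2% in monocyte-gated cells. The pathway gene lower in B mature-gated cells was Tnfrsf13c, the receptor of the B cell survival factor BAFF, at 123 CPM in Mg-TAGelMA cells and 453 CPM in Mg cells, a ratio of 0.271 (0.247 to 0.296). Monocyte-gated cells had Traf3 (3.63-fold), Traf6 (3.14-fold) and Map3k14 (2.73-fold) higher.

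Of 22 known targets of NF-kB, mature neutrophil-gated cells had 6 higher and 0 lower of 14 that reached 50 CPM, beside 12.3% of all genes tested higher, and immature neutrophil-gated cells 6 and 0 of 9, beside 8.98%. B mature-gated cells had 6 and 0 of 10, beside 21.7%, and monocyte-gated cells 5 and 0 of 13, beside 15%. B progenitor-gated cells had 5 and 0 of 7, beside 18.5%, and T-gated cells 4 and 1 of 7, beside 20.4% higher and 1.81% lower. In mature neutrophil-gated cells the leading targets were the chemokines Ccl4 at 16.1-fold (11.6 to 23.1) and Ccl3 at 10.8-fold (6.82 to 18.3), the cytokine Il1b at 6.71-fold (6.04 to 7.49) and the inflammasome sensor Nlrp3 at 3.64-fold (2.998 to 4.45). Il1b stood at 1981 CPM in Mg-TAGelMA and 295 CPM in Mg cells of that gate, and the list's median log2 ratio there was 0.42, while Nfkbia and Nfkbiz had ratios below 1. The stage markers of the neutrophil gates differed too. In the mature gate the 7 mature markers summed to 35657 CPM in Mg-TAGelMA and 29943 CPM in Mg cells and the 6 immature ones to 19403 and 30927 CPM, and in the immature gate the mature markers summed to 4293 and 2106 CPM. The part of stage in the neutrophil ratios was not tested. Immature neutrophil-gated cells were led by Il1b (10.9-fold), Ccl3 (10.5-fold), Ccl4 (5.29-fold) and Ier3 (2.44-fold), and B mature-gated cells by Il1b (11.6-fold), Plaur (9.47-fold), Cd83 (8.25-fold) and Ccl4 (3.83-fold). Monocyte-gated cells were led by Cd83 (5.37-fold), Plaur (5.08-fold), Il1b (3.57-fold) and Ccl4 (2.49-fold). In T-gated cells Plaur (9.46-fold), Cxcl2 (4.21-fold), Ccl4 (2.73-fold) and the early activation marker Cd69 (2.42-fold) were higher, and Cflar, an inhibitor of cell death, was lower, at 47.1 CPM in Mg-TAGelMA and 124 CPM in Mg cells. In B progenitor-gated cells Plaur (12.1-fold), Cd69 (5.54-fold), Ccl4 (5.47-fold) and Cxcl2 (3.88-fold) led. Il1b, Cxcl2, Plaur and Ccl4 are also transcripts of the neutrophil gates, whose markers were seen in the T, B progenitor, B mature and monocyte gates at the levels given above, and the part of free RNA in the ratios of these 4 genes was not tested.

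Genes known to respond to cell handling and dissociation did not share a direction across the gates. Of 13 such genes, monocyte-gated cells had 0 higher and 7 lower of 11 that reached 50 CPM, beside 1.39% of all genes tested lower, among them Egr1 (30.3 CPM in Mg-TAGelMA and 153 CPM in Mg cells), Btg2, Dusp1 and Zfp36. B progenitor-gated cells had 5 higher and 0 lower of 10, beside 18.5% higher, led by Fosb (5.66-fold), Fos (2.66-fold), Junb (2.61-fold) and Jund (2.55-fold), and B mature-gated cells 5 and 0 of 11, beside 21.7%, led by Atf3 (14.3-fold), Fos (3.58-fold), Fosb (3.03-fold) and Dusp1 (2.87-fold). T-gated cells had 0 higher and 0 lower of 9, beside 20.4% and 1.81% of all genes tested, at a median log2 ratio of 0.31. Mature neutrophil-gated cells had 1 higher, Atf3 (24.1-fold), and 0 lower of 11, beside 12.3% and 8.48%. Of 9 in the immature ones, Jun was higher (4.17-fold) and Egr1 lower, beside 8.98% and 3.93%. The part of handling in the members' ratios was not tested in any gate.

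Across the 12 points given by 6 gates and 2 libraries, the genes whose log2(CPM + 10) ran most like that of Nfkbia were Gpbp1l1 and Ppp2r2d (Pearson r 0.82 each), Myb and Ppp2r1a (0.79 each) and Ubald2 (0.78), of 5756 genes compared. Those most like Nfkb1 were Trappc8 (0.92), Acbd5 (0.92), Akap13 (0.91), Lrch3 (0.90) and Atxn7 (0.90). The partners of Nfkb1 have long introns as it does, 66.8, 37.6, 278, 94.9 and 138 kb in that order. The points share 2 libraries that differ in depth and Cell Ranger version, so these values are a description.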

How the data were processed

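RNA of single mouse cells was measured in 2 libraries made with the Chromium 3' v3 kit, per the labels' protocols. The deposited matrices give, for each gene and barcode, the raw count of UMIs, with no normalization by the authors; the other deposited files pair gene identifiers with symbols and list barcodes. Per the file headers, counts came from Cell Ranger 7.0.1 (Mg-TAGelMA) and 5.0.0 (Mg); the submitters' processing notes name STAR and mm10. Whether introns were counted is not given in the sources used here.

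Barcodes needed 200 or more detected genes and no more than 15% of counts from mitochondrial genes: 68 Mg-TAGelMA and 1147 Mg barcodes failed, and scrublet marked 297 (3.95%) and 197 (2.37%) of the rest as doublets, which were removed. The deposited totals were 79890998 UMIs in 7591 barcodes (Mg-TAGelMA) and 58261391 in 9466 (Mg). A cell entered a gate with UMIs of at least 3 distinct markers of that type and a marker share above a threshold placed after the share distributions were seen; 248 Mg-TAGelMA and 98 Mg cells that passed gates of several lineages, and 219 and 647 that passed none, were left out, and 176 (2.60%) and 290 (3.93%) gated cells lay within 1.5 times a threshold. Cells of the B lineage gate were split by progenitor and mature markers; 49 Mg-TAGelMA and 74 Mg cells could not be split and were left out of both.

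Ratios carry exact conditional binomial 95% intervals. All 10 members are described; up to 4 genes of each list with the largest ratios past the size rule in a direction and gate are named. Positions and intron lengths are from GENCODE vM21 (mm10), matched for 32235 of 32285 identifiers. The members, lists and rules were chosen with earlier results of these data known. The calling step was tested on simulated data. The simulated counts were Poisson draws without variation between mice, preparations or processing, so the test covers the calculation and not such variation. Alternatives covered cell filters, doublets, scaling (edgeR 4.0.16, DESeq2 1.42.0), thresholds, thinning, gates, clusters and intron length. Software: Python 3.11.15, scanpy 1.11.5, leidenalg 0.10.2, scipy 1.17.1, R 4.3.3.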

Additional observations from a re-analysis of the deposited data

Results flagged for a closer look

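5 members had ratios, Mg-TAGelMA over Mg, whose counting intervals lay above 1 in one gate and below 1 in another. The log2 ratio of Nfkbia was 1.04 in T-gated and -0.72 in mature neutrophil-gated cells, and that of Nfkb2 was 0.71 and -1.08 in these gates. Nfkbie had 1.42 in T-gated and -0.33 in B mature-gated cells. With the median of its intron length class removed, the B mature value of Nfkbie was 0.13. Nfkbiz had 1.43 in B progenitor-gated and -0.59 in mature neutrophil-gated cells. Traf1 had 2.18 in B progenitor-gated and -0.91 in mature neutrophil-gated cells, at no more than 12.9 CPM in either. With 1 library per nail the difference between gates was not tested in any of these, and the gates of a library share its depth and processing.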

How the results depend on the processing

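The number of members past the size rule kept its direction under the alternatives run. In T-gated cells it was 4 or 5 and in B mature-gated cells 2 or 3 higher under each, and it was 0 in both neutrophil gates. The share of all genes tested moved too. At a fold bound of 1.5 it was 28.3% higher in T-, 30.2% in B mature-, 20.1% in mature neutrophil- and 14.9% in immature neutrophil-gated cells. With intron class medians removed it was 10.3%, 12.1%, 11.5% and 7.21% in these gates. In monocyte-gated cells 1 was higher, and 2 with no cell filter, 2 at a minimum of 10 CPM, 2 with no minimum, 2 with intron class medians removed and 3 at a fold bound of 1.5. Of all genes tested in that gate, 14.8%, 11.7%, 7.53%, 7.54% and 22.6% were higher under these alternatives, in that order. In B progenitor-gated cells 5 became 3 with cells thinned to 1000 UMIs, 4 with the lowest level subtracted, 6 at 10 CPM or a fold bound of 1.5 and 7 with no minimum. The share of all genes higher there was 14.2% with thinning, 15.9% at 10 CPM, 26.5% at a fold bound of 1.5 and 13.7% with no minimum. Over all kept cells 3 became 5 with doublets kept and 5 at a fold bound of 1.5, and 2 under TMM, median-ratio size factors, a total without Gm42418 and AY036118, or thinning. Of all genes tested, 19.1%, 28.1%, 17.5%, 17.7%, 16.8% and 18.7% were higher under these, in that order. In B mature-gated cells 0 lower became 1 with the lowest level subtracted, an alternative chosen after seeing the data. Of the log2 ratios of single members under alternatives, 897 stayed on their side of the rule, 24 passed it only under the alternative and 9 lost it; the lost ones were Nfkbiz in all kept cells and the B progenitor gate, Birc3 in the B progenitor gate under thinning, and Nfkb1 in the T and B progenitor gates with intron class medians removed. Clusters gave no value for mature neutrophils, since a single Mg cell lay in such clusters. No paired analysis was possible because each group has 1 library. Counting intervals cover sampling of UMIs only, and differences between mice, preparations or processing could not be measured. Gates of under 100 cells in a library (basophil/mast, NK, dendritic, macrophage, plasma, early granulocyte, erythroid and progenitor cells) gave levels without ratios.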
